A study of Mus musculus with 5 samples.

Results

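Integrins are cell surface receptors made of 1 alpha and 1 beta chain that tie the cytoskeleton to the extracellular matrix, and laminins and collagens are the matrix proteins that many of them bind. Laminins are assembled from an alpha, a beta and a gamma chain and, together with type IV collagen, form the basement membrane on which the endothelium of blood vessels rests. The genes described here are the protein-coding genes with a symbol that starts with Itga, Itgb and a number, Lama, Lamb or Lamc and a number, or Col, a number and a, and that have a peak in at least 1 of 3 lists of transcription factor contacts. There are 55 of them among 9776 protein-coding genes with a peak in any list, namely 12 integrin alpha, 4 integrin beta, 10 laminin and 29 collagen genes. The RefSeq gene table holds 82 genes with such symbols, and the other 27 had no peak under these symbols in the tables used here, though 1 of them, Col26a1, is listed under an older symbol.

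The contacts were mapped by DamID, in which Dam, a bacterial adenine methylase, is joined to a transcription factor and marks the GATC sites near which that factor resides. FLI1 and ERG belong to the ETS family and SOX7 to the SOX family, and all act in early vessel and blood development. The libraries came from endothelial precursor cells made from mouse embryonic stem cells. FLK1-positive cells were taken at day 3 of embryoid body differentiation, kept for 1 day in a blast medium with VEGF and IL6, and sorted for cKIT and TIE2. The SOX7 library was made from the line iSox7::Dam, the FLI1 library from IFli1::Dam and the ERG library from iErg::Dam. A Dam-only library of the line iDam was the reference for SOX7 and a second one was the shared reference for FLI1 and ERG. All 5 libraries are from derivatives of Ainv18, with 1 library per group. A factor and its cell line therefore cannot be told apart, and differences between factors come with no replicate and no p-value. The peak lists hold no expression values, so the labelled cell type was not tested against its marker genes. The Dam-only libraries have no list used here, so no background value stands beside a peak.

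Each list gives, for a gene, the peaks assigned to it, the reads in those peaks and the reads per kb of peak. SOX7 had 10029 peaks, FLI1 16834 and ERG 1588, and the members took 62, 117 and 7 of them. Those peaks held 6084 SOX7 reads, 17918 FLI1 reads and 504 ERG reads, which is 0.624%, 0.672% and 0.372% of the listed reads of each library. Reads per kb are not scaled to library size. A level is therefore given as a percentile, the rank of a gene's reads per kb among the protein-coding genes of the same list, and reads per kb are not compared between lists. Percentiles of different lists are set side by side as descriptions. Intervals are 95% intervals for counting error only, Poisson for reads and exact binomial (Clopper-Pearson) for shares. An interval of a median percentile is a 95% interval for the median, read from the ranked values of the members. It treats genes of the same library as independent draws and does not measure variation between libraries. Positions are those of the deposited files, on mm9. The placement of peaks relative to exons, introns or UTRs was not analysed here.

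FLI1 had peaks at most genes of these families, SOX7 at fewer and ERG at 7. The FLI1 list held 52 of the 82 family genes (63.4%, 52.0 to 73.8), against 35.3% of all RefSeq protein-coding genes. The SOX7 list held 33 (40.2%, 29.6 to 51.7), against 23% (5043 of 21900), and the ERG list 7 (8.54%, 3.50 to 16.8), against 5.75%. The FLI1 and SOX7 intervals lie above the share of all genes and the ERG interval includes it. These shares are not corrected for gene length, and a part of length in them was not tested. Col26a1 is in the FLI1 list as Emid2, with 2 peaks and 250 reads at percentile 54.6. It is not counted as a member, and with it the FLI1 share would be 64.6%.

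**Figure D1:**
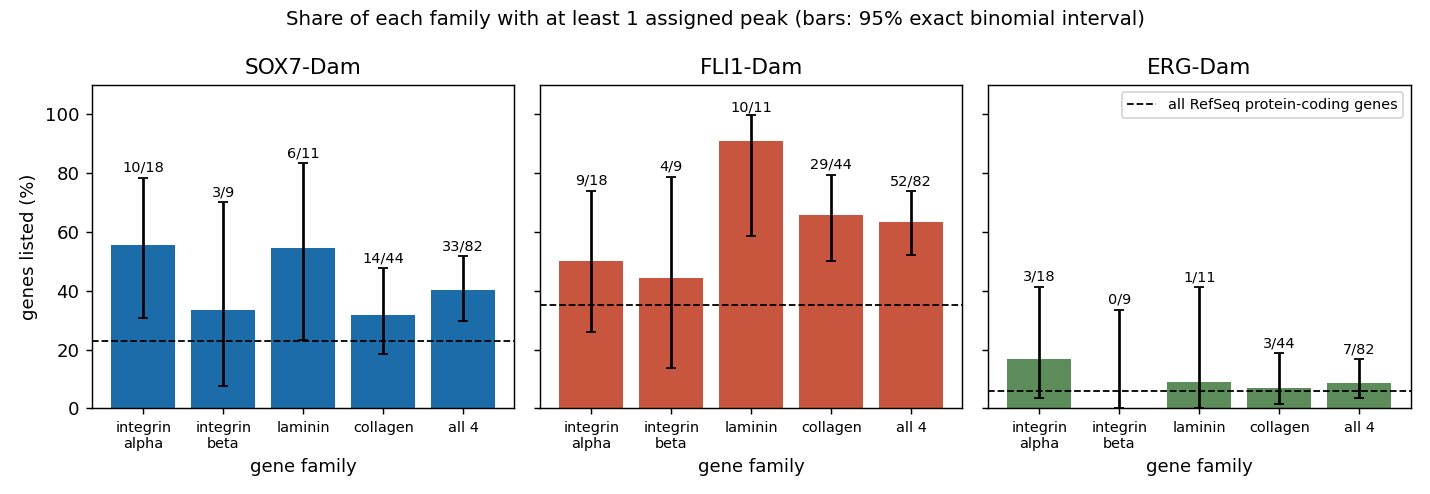
Share of the RefSeq genes of each family that have at least 1 assigned peak, in percent, in a panel per library, with exact binomial intervals as error bars and the share of all RefSeq protein-coding genes as a dashed line. The laminin bar of FLI1 is the highest at 10 of 11 genes, and integrin beta genes have no bar for ERG.

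Of the 55 members, 52 were in the FLI1 list (94.5%, 84.9 to 98.9), against 83.1% of the 9776 protein-coding genes with a peak in any list. SOX7 listed 33 of them (60.0%, 45.9 to 73.0), against 53.6%, and ERG 7 (12.7%, 5.27 to 24.5), against 13.5%. All 7 members in the ERG list were in the FLI1 list as well, as were 1069 of all 1319 protein-coding genes in the ERG list. SOX7, FLI1 and ERG shared 5 members (9.09% of 55), namely Col4a1, Col4a2, Itga1, Itga8 and Itgav. FLI1 and ERG without SOX7 had Col4a6 and Lama5. SOX7 and FLI1 without ERG had 25 members (45.5%), FLI1 alone had 20 (36.4%) and SOX7 alone had 3, the integrin alpha genes Itga2, Itga4 and Itga9. Among all 9776 protein-coding genes with a peak, the same groups made up 7.71% for all 3 factors, 3.22% for FLI1 and ERG, 30.9% for SOX7 and FLI1, 41.3% for FLI1 alone and 14.4% for SOX7 alone. Of the 82 family genes, 6.10% (2.01 to 13.7) were in all 3 lists, against 3.35% of all RefSeq protein-coding genes, and 36.6% (26.2 to 48.0) were in the SOX7 and FLI1 lists, against 16.6%. For FLI1 with ERG the share was 8.54% (3.50 to 16.8), against 4.71%. For SOX7 with ERG it was 6.10% (2.01 to 13.7), against 3.65%. These intervals, and that for all 3 lists, include the share of all genes. For any factor the share was 67.1% (55.8 to 77.1), against 42.5%. FLI1 and ERG share their Dam-only reference, so their lists are not independent of each other.

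**Figure D2:**
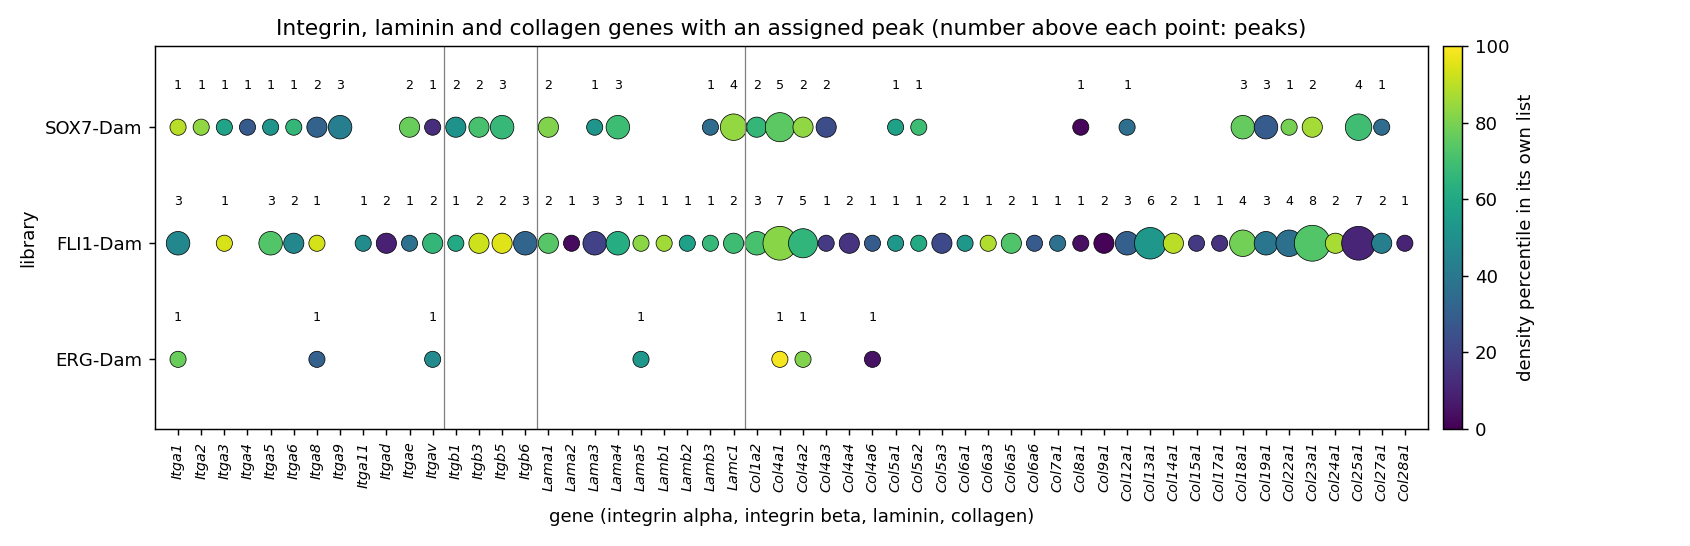
Each point is a gene (1 laminin gene is not drawn) (x axis, grouped by family) with an assigned peak in a library (y axis), with colour for its density percentile within that list and size and the printed number for its peaks. The FLI1 row is nearly filled, the ERG row has 7 points, and Col4a1 in the ERG row has the highest percentile of all points.

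Col4a1 and Col4a2 encode the chains of the type IV collagen found in nearly all basement membranes, those of vessels included, and they are neighbours that are transcribed away from each other. Col4a1 had 5 SOX7 peaks with 825 reads (770 to 883), 7 FLI1 peaks with 1806 reads (1724 to 1891) and 1 ERG peak with 279 reads (247 to 314). That ERG peak, on chromosome 8 from 11259483 to 11260883, had 199.143 reads per kb (177 to 224), 6.35 times the median of the ERG list, at percentile 98.8 and rank 17 of 1319. In the other lists Col4a1 stood at percentile 82.4 (FLI1, 108.1 reads per kb) and 74.9 (SOX7, 69.01 reads per kb). Ranked by read count in place of density, Col4a1 stood at percentile 98.6 for SOX7, 99.3 for FLI1 and 98.1 for ERG, so its place was high in each list by either measure and the order of the lists was not kept. The ERG peak lay inside the SOX7 peak from 11259341 to 11262391, and 1252 of its 1400 bp lay in the FLI1 peak from 11254485 to 11260735. Another 3 SOX7 peaks of Col4a1 met a FLI1 peak, so that 4 of 5 SOX7 peaks at this gene overlapped FLI1, and the peak from 11271341 to 11272241 did not.

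Col4a2 had 2 SOX7 peaks with 237 reads, 5 FLI1 peaks with 932 reads and 1 ERG peak with 54 reads (40.6 to 70.5). Its percentile was 83.5 for SOX7, 81.0 for ERG and 65.6 for FLI1. The ERG peak of Col4a2, from 11379533 to 11380383 on chromosome 8, shared 748 of its 850 bp with the FLI1 peak from 11379635 to 11383885. It was 20.0 kb from the nearest SOX7 peak of the gene, so no region at Col4a2 held all 3 factors. SOX7 and FLI1 met at 11314941 to 11317635. At the side where the genes face each other, the nearest peaks of Col4a1 and Col4a2 were 3500 bp apart for SOX7 and 4350 bp apart for FLI1, and no peak was assigned to both genes.

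**Figure D3:**
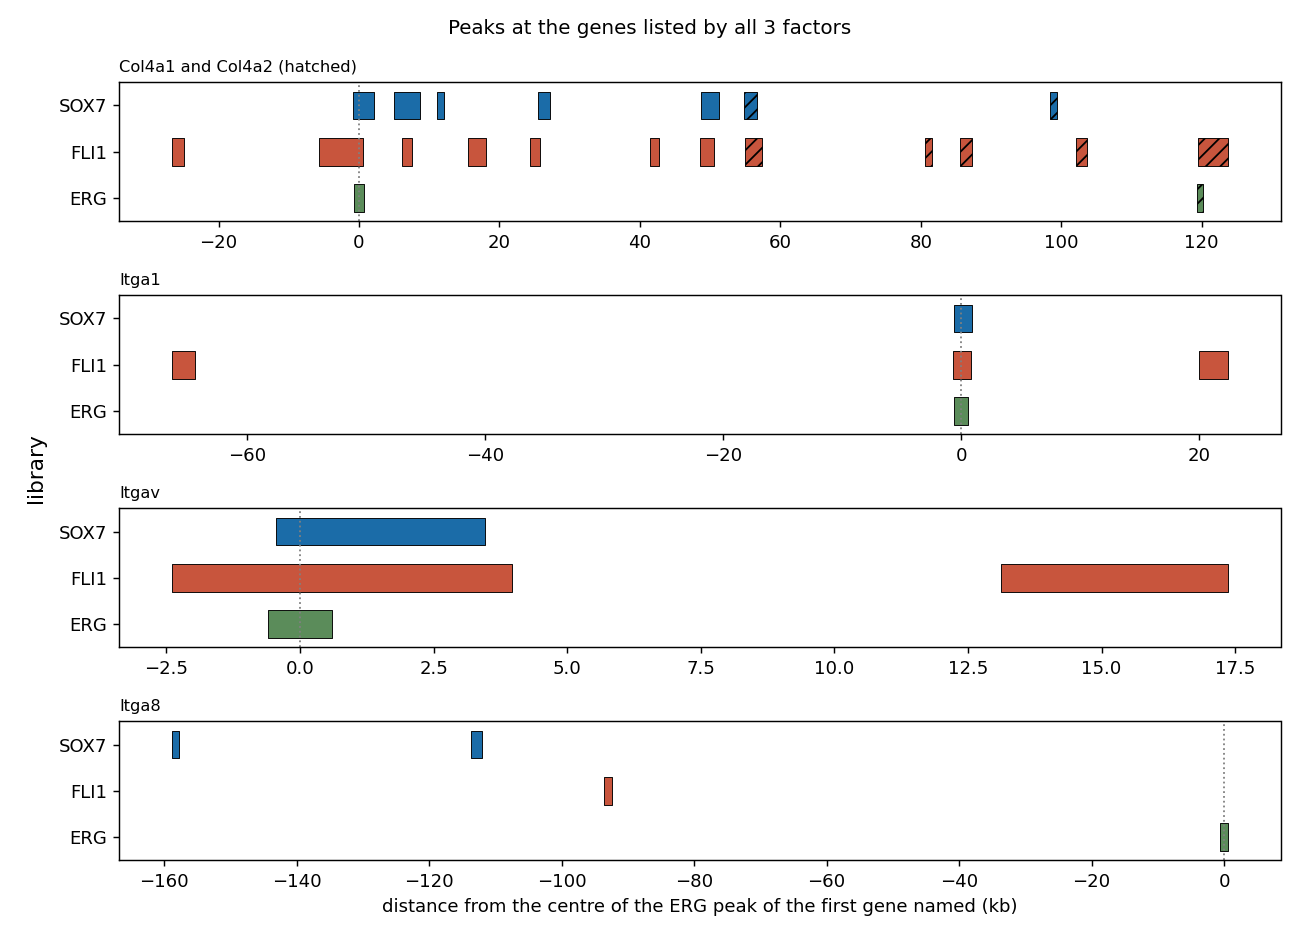
Peaks of SOX7, FLI1 and ERG (rows) at the 5 genes listed by all 3 factors, drawn to scale against the distance in kb from the centre of the ERG peak of the first gene named in a panel, with the peaks of Col4a2 hatched. The 3 factors meet at position 0 at Col4a1, Itga1 and Itgav, and at Itga8 no peaks meet.

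The promoters of the genes in all 3 lists are shown because these 5 genes are the members with a peak of every factor, which met at Col4a1, Itga1 and Itgav and not at Col4a2 and Itga8. They are RefSeq sequences of GRCm38.p6, from 250 bases before to 50 after the gene's start, and their positions are of another build than the peaks and were not set against them. Capitals mark GGAA (the ETS core, TTCC on the other strand), ACAAT (a SOX core, ATTGT on the other strand) and GATC (the Dam site, its own reverse), searched on both strands.
Col4a1 promoter, chr8:11312777-11313076, minus strand: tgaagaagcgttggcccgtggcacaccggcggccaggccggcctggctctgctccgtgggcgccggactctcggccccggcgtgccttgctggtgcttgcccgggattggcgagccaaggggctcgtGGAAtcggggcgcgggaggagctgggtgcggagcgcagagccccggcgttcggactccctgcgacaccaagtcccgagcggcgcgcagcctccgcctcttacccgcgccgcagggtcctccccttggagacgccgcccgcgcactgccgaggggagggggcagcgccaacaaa
Col4a2 promoter, chr8:11312555-11312854, plus strand: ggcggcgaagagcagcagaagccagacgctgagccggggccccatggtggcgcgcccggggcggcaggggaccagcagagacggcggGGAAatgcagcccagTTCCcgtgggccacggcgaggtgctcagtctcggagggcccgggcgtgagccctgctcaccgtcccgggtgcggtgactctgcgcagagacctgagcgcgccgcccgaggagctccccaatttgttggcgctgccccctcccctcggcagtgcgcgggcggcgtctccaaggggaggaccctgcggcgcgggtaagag
Itga1 promoter, chr13:115101915-115102214, minus strand: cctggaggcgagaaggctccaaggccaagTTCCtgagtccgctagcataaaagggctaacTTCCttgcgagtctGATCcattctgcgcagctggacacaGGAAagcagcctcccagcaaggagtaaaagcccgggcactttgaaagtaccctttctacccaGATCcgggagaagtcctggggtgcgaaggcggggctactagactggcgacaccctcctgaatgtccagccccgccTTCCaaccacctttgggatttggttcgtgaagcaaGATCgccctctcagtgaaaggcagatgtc
Itgav promoter, chr2:83724147-83724446, plus strand: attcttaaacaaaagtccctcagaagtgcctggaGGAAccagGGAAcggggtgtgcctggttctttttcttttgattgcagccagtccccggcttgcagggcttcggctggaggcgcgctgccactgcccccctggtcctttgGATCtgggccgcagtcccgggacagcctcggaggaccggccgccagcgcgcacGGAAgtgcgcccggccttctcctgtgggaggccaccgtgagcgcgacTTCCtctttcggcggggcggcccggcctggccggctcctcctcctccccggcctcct
Itga8 promoter, chr2:12301895-12302194, minus strand: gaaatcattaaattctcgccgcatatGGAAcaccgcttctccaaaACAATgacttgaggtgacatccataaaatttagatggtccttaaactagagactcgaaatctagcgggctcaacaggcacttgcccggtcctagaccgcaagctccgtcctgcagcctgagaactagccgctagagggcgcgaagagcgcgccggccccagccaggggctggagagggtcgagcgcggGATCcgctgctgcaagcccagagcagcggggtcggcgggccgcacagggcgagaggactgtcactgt
The windows of Col4a1 and Col4a2 overlap by 78 bases on opposite strands, and 74.0% and 73.7% of their bases are G or C. GGAA was found in all 5 promoters, with 4 matches each at Itga1 and Itgav, 2 at Col4a2 and 1 each at Col4a1 and Itga8. ACAAT was found at Itga8 alone, and GATC 3 times at Itga1 and once each at Itga8 and Itgav. Among 17492 RefSeq promoters of protein-coding genes, 95.7% hold GGAA, 28.5% hold ACAAT and 46.9% hold GATC. Of 41 member promoters in the table, 40 hold GGAA (97.6%), 5 hold ACAAT (12.2%) and 23 hold GATC (56.1%). Matches of different motifs may share bases, and a match is a description of the sequence only.

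Integrin alpha genes were in the SOX7 list in 10 of 18 cases (55.6%, 30.8 to 78.5), in the FLI1 list in 9 (50.0%, 26 to 74) and in the ERG list in 3 (16.7%, 3.58 to 41.4). The shares of all RefSeq protein-coding genes were 23%, 35.3% and 5.75%, and the FLI1 and ERG intervals include them. Of the collagen receptor chains, Itga1 was in all 3 lists, Itga2 in the SOX7 list and Itga11 in the FLI1 list. Itga1 had 1 SOX7 peak with 140 reads (118 to 165), 3 FLI1 peaks with 390 reads and 1 ERG peak with 68 reads (52.8 to 86.2). It was the densest member of the SOX7 list at 93.27 reads per kb and percentile 89.3, and its percentile was 77.0 for ERG and 46.8 for FLI1. Ranked by read count, Itga1 stood at percentile 64.6 for SOX7, 75.7 for ERG and 79.8 for FLI1. The SOX7, FLI1 and ERG peaks met on chromosome 13 from 115811042 to 115812653, and all 1200 bp of the ERG peak lay in each of the other peaks. The centres of the ERG and FLI1 peaks were 23 bp apart and those of the ERG and SOX7 peaks 134 bp. Itga2, the neighbour of Itga1, had 90 SOX7 reads in 1 peak at percentile 83.5, or 45.9 by read count.

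Itgav, the alpha chain of several receptors for the RGD motif of fibronectin and vitronectin, also had a place where all 3 factors met, on chromosome 2 from 83563398 to 83569748. It had 116 SOX7 reads in 1 peak, 893 FLI1 reads in 2 peaks and 36 ERG reads (25.2 to 49.8) in 1 peak. Its percentile was 12.8 for SOX7, 66.3 for FLI1 and 47.6 for ERG. The SOX7 peak, at 29.74 reads per kb, was among the sparse ones of its list and lay wholly inside the FLI1 peak. The second FLI1 peak is also assigned to Gm13684. Itga8, which pairs with Itgb1 in a receptor needed for kidney formation, was in all 3 lists with no overlap. It had 107 SOX7 reads in 2 peaks, 173 FLI1 reads in 1 peak and 25 ERG reads (16.2 to 36.9) in 1 peak. Its percentiles were 31.6 in the SOX7 list, 93.5 in the FLI1 list and 30.6 in the ERG list. The nearest SOX7 and FLI1 peaks were 18449 bp apart and the ERG peak, shared in the file with E030013I19Rik, was 91840 bp from the FLI1 peak.

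Itga5, the chain of the main fibronectin receptor of vessels, and Itga3 and Itga6, chains of laminin receptors, were in the SOX7 and FLI1 lists. Itga3 had 1 peak in each, on chromosome 11, with 179 SOX7 reads (percentile 57.9) and 506 FLI1 reads (463 to 552, percentile 94.0). Both peaks were 3300 bp wide, and their centres were 14 bp apart. Itga5 had 1 broad SOX7 peak of 5550 bp with 279 reads at percentile 52.1, which held the whole of a FLI1 peak of 3600 bp with the centre 8 bp away. Its 3 FLI1 peaks held 682 reads at percentile 72.7. Itga6 had 85 SOX7 reads in 1 peak at percentile 66.3 and 197 FLI1 reads in 2 peaks at percentile 46.1, with 33801 bp between the nearest peaks. Itga4 and Itga9, chains of receptors for fibronectin and VCAM-type ligands, were in the SOX7 list at percentiles 27.8 and 42.5. The leukocyte chain Itgae was in the SOX7 and FLI1 lists without overlap, and Itgad in the FLI1 list at percentile 9.1. Itga7, Itga10, Itga2b, Itgal, Itgam and Itgax had no listed peak in the tables used here.

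Of 9 integrin beta genes, 4 were in the FLI1 list (44.4%, 13.7 to 78.8), 3 in the SOX7 list (33.3%, 7.49 to 70.1) and 0 in the ERG list, where a count of 0 of 9 leaves an upper bound of 33.6%. All 3 intervals include the shares of all RefSeq protein-coding genes, 35.3%, 23% and 5.75%. Itgb1, the beta chain with the most alpha partners, had 2 SOX7 peaks with 278 reads (percentile 51.0) and 1 FLI1 peak with 172 reads (percentile 60.3). Itgb3 and Itgb5, partners of the Itgav chain, were among the densest members of the FLI1 list. Itgb5 had the highest percentile of the 52 members there, 95.2, with 694 reads (643 to 748) in 2 peaks at 165.16 reads per kb. Itgb3 had 567 FLI1 reads in 2 peaks at percentile 92.5. In the SOX7 list they stood nearer the middle, Itgb3 with 318 reads in 2 peaks at percentile 70.8 and Itgb5 with 224 reads in 3 peaks at percentile 67.1. Ranked by read count, Itgb3 stood at percentile 88.4 for SOX7 and 88.5 for FLI1, and Itgb5 at 79.8 and 92.2. At each of Itgb1, Itgb3 and Itgb5, 1 SOX7 peak overlapped 1 FLI1 peak, by 2094, 1164 and 1350 bp. Itgb6, a chain mostly known from epithelia, had 3 FLI1 peaks at percentile 32.1.

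Laminin genes were in the FLI1 list in 10 of 11 cases (90.9%, 58.7 to 99.8), in the SOX7 list in 6 (54.5%, 23.4 to 83.3) and in the ERG list in 1 (9.09%, 0.230 to 41.3). Over all RefSeq protein-coding genes the shares were 35.3%, 23% and 5.75%, and the ERG interval includes its share. The chains of vessel basement membranes are mainly those of Lama4, Lama5, Lamb1 and Lamc1. Lama4 had 3 SOX7 peaks with 251 reads (221 to 284) at percentile 68.5 and 3 FLI1 peaks with 707 reads (656 to 761) at percentile 62.0. They met once, on chromosome 10 from 38763370 to 38765520. Lama5 had 250 FLI1 reads in 1 peak at percentile 82.8 and 30 ERG reads (20.2 to 42.8) in 1 peak at percentile 53.1, with 3690 bp between the peaks. Lamc1 had 4 SOX7 peaks with 424 reads (385 to 466) at percentile 83.9, rank 3 among the 33 members of that list, and 2 FLI1 peaks with 339 reads at percentile 69.0. None of its peaks overlapped, and the nearest were 1499 bp apart. Lamb1 had 1 FLI1 peak with 122 reads at percentile 85.6, the highest of the laminin genes in that list by density. Ranked by read count, Lamb1 stood at percentile 33.9 there.

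Lama3 and Lamb3, known mainly from epithelia, were in the SOX7 and FLI1 lists. Lamb3 had 84 SOX7 reads and 85 FLI1 reads in peaks that met, and Lama3 had 78 SOX7 reads and 313 FLI1 reads in peaks that were 147 kb apart. Lama1, an early embryonic chain, had 2 peaks in each of these lists, at percentile 81.1 for SOX7 and 73.5 for FLI1. Lamb2, at percentile 56.6, and Lama2, a muscle chain, at percentile 2.8, had 1 FLI1 peak each. Of the 12 SOX7 peaks at laminin genes 2 overlapped a FLI1 peak (16.7%), at Lama4 and Lamb3, against 35.2% of all SOX7 peaks. The count is small and no interval was computed for it.

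Collagen genes were in the FLI1 list in 29 of 44 cases (65.9%, 50.1 to 79.5), in the SOX7 list in 14 (31.8%, 18.6 to 47.6) and in the ERG list in 3 (6.82%, 1.43 to 18.7), all 3 of them type IV. Against the 35.3%, 23% and 5.75% of all RefSeq protein-coding genes, the FLI1 interval lies above and the SOX7 and ERG intervals include the share. Of the network-forming types, Col4a3 had 2 SOX7 peaks and 1 FLI1 peak, Col4a4 had 2 FLI1 peaks, and Col8a1 had 1 peak in each of these lists. They were sparse, with percentiles between 15.0 and 17.2 for Col4a3 and Col4a4 in the FLI1 list, 23.4 for Col4a3 in the SOX7 list, and 4.2 and 1.9 for Col8a1 in the FLI1 and SOX7 lists. Col4a6, on chromosome X, had 1 FLI1 peak with 55 reads and 1 ERG peak with 12 reads (6.20 to 21), the fewest ERG reads of any member, at percentile 4.5. Those peaks were 230 kb apart. Thus the type IV genes hold both the highest and the lowest ERG percentile among the members.

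All 4 transmembrane collagens were in the FLI1 list (100%, 39.8 to 100) and 2 of them in the SOX7 list (50.0%, 6.76 to 93.2). Over all RefSeq protein-coding genes the shares were 35.3% and 23%, and the SOX7 interval includes its share. Col23a1 had 8 FLI1 peaks with 1309 reads (1239 to 1382), the most peaks of any member, and 2 SOX7 peaks with 304 reads, both of which met a FLI1 peak. It stood at percentile 86.4 of the SOX7 list, the second of the members there, and at 73.0 of the FLI1 list. Col25a1 had 7 FLI1 peaks with 417 reads at percentile 10.4 and 4 SOX7 peaks with 343 reads at percentile 69.3. Col13a1 had 6 FLI1 peaks with 685 reads at percentile 53.0, and Col17a1, a collagen of epithelial adhesion, 1 FLI1 peak at percentile 14.3. Of the multiplexins, which end in fragments known to act on vessel growth, Col18a1 (the source of endostatin) had 3 SOX7 peaks with 298 reads at percentile 76.4 and 4 FLI1 peaks with 628 reads at percentile 78.9. Col15a1 had 1 FLI1 peak with 72 reads at percentile 17.

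Fibrillar collagen genes were in the FLI1 list in 6 of 11 cases (54.5%, 23.4 to 83.3) and in the SOX7 list in 4 (36.4%, 10.9 to 69.2). Both intervals include the shares of all RefSeq protein-coding genes, 35.3% and 23%. Col1a2, a chain of type I collagen, had 2 SOX7 peaks with 207 reads (percentile 66.4), both meeting a FLI1 peak, and 3 FLI1 peaks with 431 reads (percentile 70.9), while its partner Col1a1 had no listed peak. Col5a2 had 1 peak from each of SOX7 and FLI1, which met, and Col5a1 1 from each, 27199 bp apart. Col27a1 was in both lists without overlap, and Col5a3 and Col24a1 were in the FLI1 list, Col24a1 at percentile 87.1. Among collagens that attach to fibrils, Col14a1 had the highest FLI1 percentile of all collagen genes, 89.7, with 387 reads in 2 peaks. Col12a1, Col19a1 and Col22a1 were in the SOX7 and FLI1 lists, and Col9a1 had the lowest FLI1 percentile of the members, 1.1. Col6a1, Col6a3, Col6a5, Col6a6, Col7a1 and Col28a1 were in the FLI1 list with 1 or 2 peaks each, from percentile 10.1 for Col28a1 to 88.0 for Col6a3. SOX7 had 0 of the 9 genes of types VI, VII, XXVI and XXVIII, which leaves an upper bound of 33.6%, against 23% of all RefSeq protein-coding genes.

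Members in the FLI1 and SOX7 lists often had more than 1 peak, in counts that are not corrected for gene length. In the FLI1 list 30 of 52 members (57.7%, 43.2 to 71.3) had at least 2 peaks, against 39.5% of its protein-coding genes. In the SOX7 list it was 17 of 33 (51.5%, 33.5 to 69.2), against 33.9%. In the ERG list it was 0 of 7 (upper bound 41.0%), against 8.87% (at least 4 peaks, 0.227%). The FLI1 interval lies above its share of all listed genes, and the SOX7 and ERG intervals include theirs. At least 4 peaks were assigned to 7 FLI1 members (13.5%), against 9.73%, and to the SOX7 members Col4a1, Lamc1 and Col25a1 (9.09%), against 8.07%. The mean was 2.25 peaks per member for FLI1 and 1.88 for SOX7, against 1.86 and 1.70 over all listed protein-coding genes. Member peaks had a median width of 1350 bp in the SOX7 library, where all peaks had 1450 bp, of 1650 bp in the FLI1 library, as over all peaks, and of 1100 bp in the ERG library, where all peaks had 950 bp.

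Read density of the members spanned nearly the whole of each list. The median percentile was 66.3 for the 33 SOX7 members (range 1.9 to 89.3), 53.0 for the 52 FLI1 members (1.1 to 95.2) and 53.1 for the 7 ERG members (4.5 to 98.8), where the median of a list is 50 by construction. The 95% intervals of these medians were 48.8 to 70.8 for SOX7, 37.2 to 67.0 for FLI1 and 4.5 to 98.8 for ERG. Each includes 50, the SOX7 interval only just, and the ERG interval is the full range of its 7 members. In reads per kb, the SOX7 members had a median of 60.67 against 48.94 for the list, and the FLI1 members 72.0 against 69.5. Within the densest 25.0% of the genes of each list were 9 of 33 SOX7, 12 of 52 FLI1 and 3 of 7 ERG members. By family, the FLI1 medians were 76.4 for 4 integrin beta, 68.0 for 10 laminin, 48.3 for 9 integrin alpha and 39.1 for 29 collagen genes. The SOX7 medians lay closer together, at 67.1, 60.3, 55.0 and 67.5 in the same order. Within the SOX7 and FLI1 lists, each family's points overlap those of the others. Of the 30 members in both lists, the density percentiles lay farthest apart at Itga8 (31.6 for SOX7, 93.5 for FLI1) and Col25a1 (69.3 and 10.4). Both gaps were far smaller when genes were ranked by read count, with Itga8 at 53.0 for SOX7 and 49.1 for FLI1, which turns its direction, and Col25a1 at 90.0 and 81.6.

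**Figure D4:**
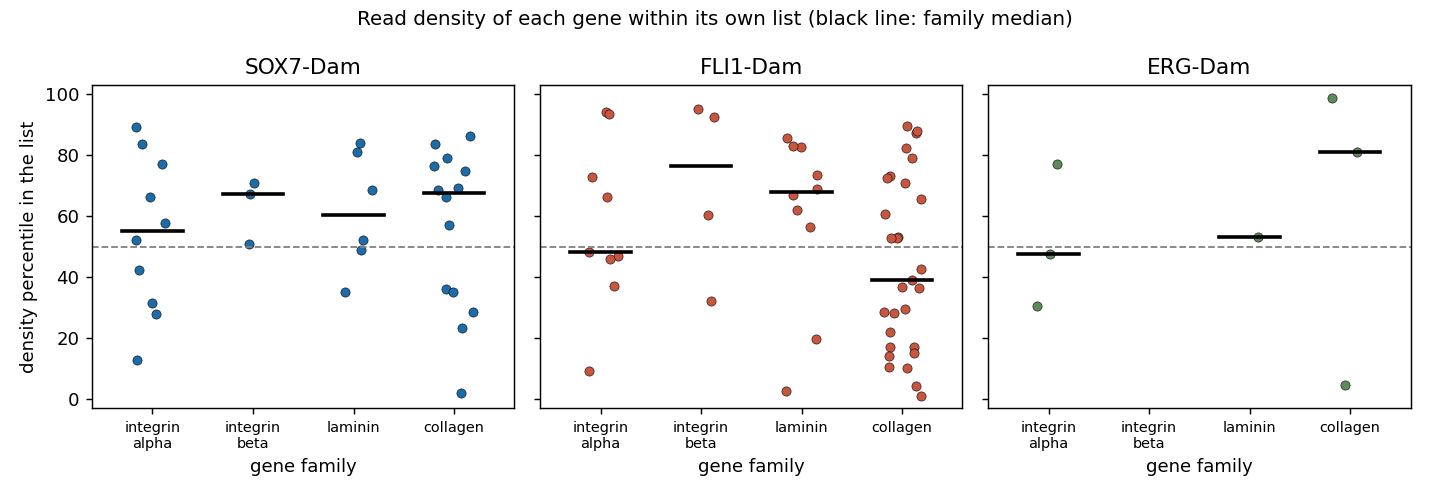
Density percentile of each gene within its own list (y axis, 0 to 100) by family (x axis) for each library, with a black line at the family median and a dashed line at 50. FLI1 integrin beta and laminin medians lie above 50, the FLI1 collagen median is 39.1, and points of all families overlap.

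Counted over all member peaks, overlap between factors was close to that of the libraries as a whole. Of the 62 SOX7 member peaks 24 shared 1 bp or more with a FLI1 peak (38.7%, 26.6 to 51.9), against 35.2% of all SOX7 peaks, and 3 overlapped an ERG peak (4.84%, 1.01 to 13.5), against 5.13%. Of the 117 FLI1 member peaks 24 met SOX7 (20.5%, 13.6 to 29.0), against 20.9%, and 4 met ERG (3.42%, 0.939 to 8.52), against 4.63%. Of the 7 ERG peaks 4 met FLI1 (57.1%, 18.4 to 90.1), against 49.3%, and 3 met SOX7 (42.9%, 9.90 to 81.6), against 32.4%. Each interval includes the share of all peaks. Among peaks at least as wide as the list median, however, 17 of 25 SOX7 member peaks met FLI1 (68.0%), against 43.6% of all such SOX7 peaks. In the same setting 14 of 63 FLI1 member peaks met SOX7 (22.2%), against 26.5% of all such FLI1 peaks. No interval was computed for these shares of wide peaks. Without the peaks of Col4a1 and Col4a2, a setting chosen after seeing the data, every share was lower. SOX7 member peaks met FLI1 in 34.5% and ERG in 3.64%. FLI1 member peaks met SOX7 in 18.1% and ERG in 1.90%. ERG member peaks met FLI1 in 40.0% and SOX7 in 40.0% (2 of 5 each). The shares of SOX7 on FLI1 and of ERG on FLI1 then lay below those of all peaks, and that of ERG on SOX7 stayed above. Every peak of another factor that a member peak met was assigned to the same gene in its own list. Overlapping peaks lie at much the same place, so this says little about the factors, and no share over all peaks stands beside it. Among SOX7 peaks that met FLI1, the centres were a median of 522 bp apart (8 to 3256), against 461 bp over all such peaks.

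**Figure D5:**
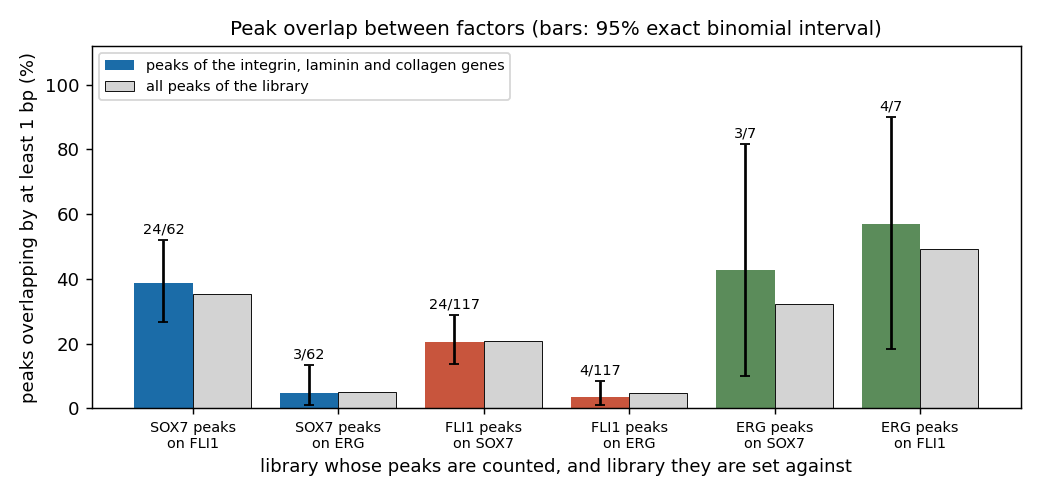
Share of peaks, in percent, that overlap a peak of another factor by at least 1 bp, for the peaks of the integrin, laminin and collagen genes (coloured, with exact binomial intervals and counts) and for all peaks of the library (grey). The grey bars lie within every interval, and the ERG intervals are wide because they rest on 7 peaks.

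Counted by gene, 19 of the 30 members listed by SOX7 and FLI1 had peaks that met (63.3%, 43.9 to 80.1), against 62.8% of the 3771 protein-coding genes in both lists. For FLI1 and ERG it was 4 of 7, against 63.9%, and for SOX7 and ERG 3 of 5, against 53.8%. At the 11 members where SOX7 and FLI1 peaks did not meet, the nearest were a median of 27.1 kb apart, from 1499 bp at Lamc1 to 147 kb at Lama3. Collagen genes had 15 of 29 SOX7 peaks on a FLI1 peak (51.7%), integrin beta genes 3 of 7, integrin alpha genes 4 of 14 and laminin genes 2 of 12. Over all SOX7 peaks the share was 35.2%. These family counts are small and families were not tested against each other. Of 158 merged regions that held a member peak, 3 held all 3 factors (1.90%), 21 SOX7 and FLI1 (13.3%) and 1 FLI1 and ERG. In the whole series, 1.71% of 23972 regions held all 3 factors and 12.8% SOX7 and FLI1 without ERG. The 6 member peaks that are also assigned to another gene lie at Col4a3, Itgae, Lama3, Itgav and Itga8, and no peak was assigned to more than 1 member.

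Partners of these proteins in the matrix and at the integrin tails were in the lists as well. They come from hand-picked lists of textbook partners, chosen with results of these data known. Of 15 further matrix genes (Hspg2, Nid1, Nid2, Agrn, Fn1, Sparc, Dag1, Vtn, Tnc, Fbln1, Fbln2, Lox, Loxl2, P4ha1 and Serpinh1), 12 were in the FLI1 list (80.0%, 51.9 to 95.7), 10 in the SOX7 list (66.7%, 38.4 to 88.2) and 5 in the ERG list (33.3%, 11.8 to 61.6), against 35.3%, 23% and 5.75% of all RefSeq protein-coding genes. Hspg2, Agrn, Fbln2 and Loxl2 were in all 3. Hspg2 encodes perlecan, a proteoglycan of basement membranes, and had 78 ERG reads at percentile 89.0, 1234 FLI1 reads at 86.1 and 392 SOX7 reads at 85.6. Fbln2, an elastic fibre and basement membrane protein, stood at percentile 94.5 for ERG, 82.6 for FLI1 and 80.6 for SOX7. Agrn and Loxl2 stood lower, at percentiles 13.2 and 14.6 for ERG, 53.9 and 8.1 for FLI1 and 14.2 and 51.8 for SOX7. The nidogen genes Nid1 and Nid2, which link laminin to type IV collagen, were in the SOX7 and FLI1 lists. Of 17 genes for proteins at or near integrin tails (Tln1, Tln2, Vcl, Ilk, Parva, Parvb, Lims1, Fermt1, Fermt2, Fermt3, Ptk2, Pxn, Zyx, Bcar1, Src, Itgb1bp1 and Itgb3bp), 15 were in the FLI1 list (88.2%, 63.6 to 98.5), 10 in the SOX7 list (58.8%, 32.9 to 81.6) and 4 in the ERG list (23.5%, 6.81 to 49.9), against the same shares of all genes. Tln2, a talin that binds integrin beta tails, and Fermt2, a kindlin, were in all 3, and Fermt2 was sparse in each, at percentiles 13.6, 27.4 and 5.9 of the SOX7, FLI1 and ERG lists.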

How the data were processed

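DamID libraries of 3 factors and 2 Dam-only controls were sequenced as single reads of 60 bp, per the labels' protocols. A table per factor gives genes and the peaks assigned to each. The deposited counts are whole reads in the peaks of a gene, per the file headers. A coverage signal stands beside it, in reads per kb of peak, per the file headers. The count times 1000 over summed peak length returned it within 0.2% in 100% of genes of each list. The build is mm9, as the submitters' processing notes state. The peak caller, its threshold and the rule for assigning peaks to genes are not stated by labels or headers.

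Members were found by symbol and matched between lists by Ensembl identifier. Shares of all genes use 21900 protein-coding genes of a RefSeq table (GRCm38.p6, names only), which matched 96.5% (SOX7), 95.6% (FLI1) and 95.7% (ERG) of the listed protein-coding genes, older symbols included. Overlaps needed 1 bp between unique peaks, and regions are chains of overlapping peaks. No test was run, as each group has 1 library. The overlap step was tested on simulated peaks. The members, the lists and the rule for named genes (members of all 3 lists, the 5 densest and 5 with most peaks per list, shared regions) were chosen with earlier results of these data known. Members named beyond that rule were named after their values were seen. Python 3.11.15, pandas 2.3.3 and SciPy 1.17.1 were used. The values of 1 laminin gene are not reported here by name, and it stays in all counts. Amplified reads carry no molecular identifiers.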

Additional observations from a re-analysis of the deposited data

How the results depend on the processing

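For the listing, overlap, peak number and median density results, 40 alternative values were graded as near the reported one and 4 as moved. Keeping the denser 50% of each list's protein-coding genes removes genes by construction. It left 22 of 33 SOX7, 28 of 52 FLI1 and 4 of 7 ERG members, and 2 of the 5 members in all 3 lists. The SOX7 count was graded as near although it fell, and the other 3 counts as moved. Restricted to peaks at least as wide as the list median, 68.0% of the SOX7 member peaks overlapped FLI1 (17 of 25). The share of all such SOX7 peaks was 43.6%. In the same setting 22.2% of the FLI1 member peaks overlapped SOX7 (14 of 63), against 26.5% of all such FLI1 peaks. No interval was computed for these shares of wide peaks, and the cause was not tested. Overlap of 50% of the shorter peak, peaks within 1000 bp, matching by symbol and peaks of 1 protein-coding gene moved no count or share beyond its bounds. Ranking by read count in place of density moved the percentile of 11 of the 15 values of the genes in all 3 lists, and the cause was not tested. Itgav in the SOX7 list went from percentile 12.8 to 56.5 and Itga8 from 31.6 to 53.0 in the SOX7 list and 93.5 to 49.1 in the FLI1 list. No paired analysis was possible because each group has 1 library. ERG rests on 7 peaks of 12 to 279 reads, so its shares have wide intervals.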
